A study of Rattus norvegicus with 12 samples.

Results

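The tumour necrosis factor (TNF) superfamily and the NF-kappaB pathway were examined in bronchi of rats that had inhaled 2,3-pentanedione (PD), a flavouring chemical. The group was defined by gene symbol: Tnf, the numbered Tnfsf ligands and Tnfrsf receptors, the Traf adaptors, genes whose symbol starts with Nfkb or Ikbk, and Rel, Rela, Relb, Tnfaip3, Birc2, Birc3, Cd40, Fas, Myd88, Ripk1 and Ripk2. Among probe sets annotated with a single symbol, the array has 46 such genes, with 61 probe sets, among 14217 genes in all. Of the 60 protein-coding rat genes that fit the definition in RefSeq, 14 had no probe set annotated with that gene alone, among them Rel, Ikbkg and Tnfsf13b. These were not analysed here. Each gene is represented by the probe set with the highest mean signal over all arrays. By role there are 7 ligands, 16 receptors, 7 TRAFs, 4 NF-kappaB subunits, 5 inhibitors of the IkB class and 7 adaptors, kinases and ubiquitin enzymes.

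Male Wistar Han rats, 6 to 7 weeks old on arrival, inhaled either PD at 200 ppm or clean filtered air, 6 hours daily for 12 exposure days in 2 weeks. Bronchi were then captured by laser from frozen sections, and their RNA was amplified and hybridized to Affymetrix rat arrays, 1 specimen to an array. The 12 arrays fall into fibrotic bronchi of PD-exposed rats (replicates 3, 7 and 9, intraluminal polyps or plaques with the wall beneath), non-fibrotic bronchi of PD-exposed rats (replicates 4, 8 and 10, lining epithelium and wall) and bronchi of air-exposed controls (replicates 1 to 6). Fibrotic and non-fibrotic specimens came in part from the same rats, but the labels do not say which, so p-values between these groups make no allowance for it.

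Ligands of the TNF superfamily bind receptors of the TNFR superfamily, many of which recruit TRAF proteins and the ubiquitin ligases encoded by Birc2 and Birc3. This assembly activates the IkB kinase, which marks IkB proteins for destruction and releases NF-kappaB dimers into the nucleus. NF-kappaB then induces cytokines and chemokines, and also its own brakes, among them IkB-alpha (Nfkbia) and the ubiquitin-editing enzyme A20 (Tnfaip3). In airways the pathway is best known from epithelial cells and macrophages during inflammation.

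The promoters of these genes were searched for NF-kappaB motifs. RefSeq (build GRCr8) gives a promoter window, 250 bases before to 50 after the start of the gene, for 33 of the 46 genes. The sequence GGGNNTTTCC, searched on both strands, occurred in 7 of the 33 windows (21.2%) and in 1.52% of all 27457 windows. The wider NF-kappaB consensus, which includes all of these matches except that of Tnfrsf4, occurred in 9 of the 33 (27.3%) and in 7.57% of all. A match describes these letters and is not a measured binding site. The stretches of 4 inhibitors or feedback genes are shown because their expression is followed below, 5′ to 3′ on the strand of the gene, with the match to GGGNNTTTCC or its reverse complement in capitals.
Tnfaip3: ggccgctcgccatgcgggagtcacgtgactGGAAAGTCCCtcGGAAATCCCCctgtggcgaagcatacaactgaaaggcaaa
Nfkbia: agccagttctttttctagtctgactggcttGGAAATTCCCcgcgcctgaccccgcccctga
Nfkbiz: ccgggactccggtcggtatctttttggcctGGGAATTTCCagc
Nfkb2: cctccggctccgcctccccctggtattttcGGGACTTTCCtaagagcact
The Tnfaip3 stretch lies at chr1:15543995-15544076 on the minus strand and holds 2 matches. The Nfkbia stretch lies at chr6:78597073-78597133 on the minus strand. The Nfkbiz stretch lies at chr11:58251678-58251720 and that of Nfkb2 at chr1:255108324-255108373, both on the plus strand. Nfkb1 and Traf3 also held a match.

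Signals are MAS5 values, given here on the log2 scale and compared only within a gene. Calls rest on 1 limma model of the 3 groups, with p adjusted by Benjamini-Hochberg over all 31042 probe sets and a threshold of 0.01, and "passed 0.05" names the second threshold. The level of transcripts that were not in the samples reached 6.52, and a fold against a group that lay wholly under it is a lower bound. Tnfsf11 was under this level on every array and 21 of the 46 genes were above it on every array. Amplification controls differed between arrays: the mean signal of the added poly-A transcripts was 2.31 to 2.33 in controls 1 and 2, whose labels have the form of those of the exposed arrays, and 9.99 to 10.6 in controls 3 to 6, against 8.02 to 11.1 in the exposed groups. The 3′ minus 5′ difference of Gapdh, a sign of shorter RNA, was 1.59 to 2.11 in fibrotic bronchi, 1.95 to 2.35 in non-fibrotic bronchi, 1.16 to 2.03 in controls 1 and 2 and 0.704 to 0.897 in controls 3 to 6, below every exposed array.

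Fibrotic bronchi carried more macrophage and fewer ciliated and club cell transcripts than control bronchi. Of 20 measured macrophage and monocyte markers, 11 rose. The log2 of the summed signal of the 20 was 15.8 to 16.6 in fibrotic, 14.7 to 15.6 in non-fibrotic and 14.2 to 15.1 in control bronchi. Between non-fibrotic and control bronchi none of the 20 was called and their median difference was −0.55, against the order of the sums. In fibrotic against control bronchi all 9 ciliated cell markers and all 11 club cell markers fell. Of all genes, 4.13% were called higher and 8.38% lower in this comparison. Basal and squamous epithelial markers had 4 of 12 that rose and fibroblast markers 6 of 14. The club cell list includes Sec14l3, Pon1, Fmo2 and Cyp4b1, which the authors already reported among the largest decreases in these fibrotic bronchi. Lamb3 and Tgm1 of the basal and squamous list and Postn of the fibroblast list were likewise reported as raised. The counts of these lists are thus not independent of the published results. Of T and NK cell markers (16), B and plasma cell markers (10) and neutrophil markers (7) none was called, with median log2 differences of 1.64, 1.31 and 0.69. In bulk tissue, a change in the number of cells of a type and a change in RNA per cell cannot be told apart, and the part of these cells in the results that follow was not tested.

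In fibrotic against control bronchi Tnfrsf12a rose, Tnfrsf19 fell, and no other of the 46 genes was called, where 12.5% of all genes were called (4.13% higher and 8.38% lower). At 0.05, 9 genes were higher and 1 was lower, and 10% and 12.4% of all genes passed in these directions. Receptors made up 6 of the 9, and the others were Tnfsf9, Traf5 and Birc2. The count of 9 depended on the arrays: it was 1, 3 and 2 without fibrotic array 3, 7 or 9, 3, 2 and 5 without control 3, 5 or 6, 1 with the form of the labels as a fixed block and 0 against controls 1 and 2 alone. Of the 25 passes at 0.05 in the 3 comparisons, 2 held under every alternative run, those of Tnfrsf19 against control in fibrotic bronchi and of Tnfrsf26 between fibrotic and non-fibrotic bronchi. All fibrotic arrays lay above all controls in 8 genes and below them in 4, against 15.1% and 13.4% of all genes. The 4 include Tnfsf4, which was under the level of absent transcripts in both groups. The median log2 difference of the 46 genes was 0.46, and that of all genes was 0.10. Receptors had a median of 1.49, adaptors, kinases and ubiquitin enzymes 0.66, ligands 0.25, IkB genes 0.10, TRAFs −0.09 and NF-kappaB subunits −0.14.

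Non-fibrotic bronchi were set against the same 6 controls, so these 2 comparisons are not independent. Most members were lower here. Tnfrsf19 fell, and no member was called as higher, where 0.619% of all genes were called (0.183% higher and 0.436% lower). At 0.05, Tnfrsf19, Nfkbia, Tnfrsf1a, Traf2, Ripk2 and Tnfaip3 were lower and none was higher, against 3.72% and 2.84% of all genes. All non-fibrotic arrays lay above all controls in 2 genes and below them in 4, against 8.4% and 6.37% of all genes. The 2 were Tnfrsf17 and Tnfsf11, and Tnfsf11 was under the level of absent transcripts on every array. The difference was negative for 35 of the 46 genes, with a median of −0.71 where all genes had a median near 0. On the probe sets used, the 35 included all 4 NF-kappaB subunits and all 7 adaptors, kinases and ubiquitin enzymes. A second probe set gave 0.01 for Ripk1 and −2.42 for Ikbkb. Non-fibrotic array 8 had the lowest of the 12 values for 23 of the 46 genes (50%), and for 18.8% of all genes. Without it, the median was −0.10, the difference was positive for 19 of the 46 and only Tnfrsf19 passed 0.05. The count of genes lower at 0.05 was also 1 without control 4, without control 6 and against controls 1 and 2 alone. Against controls 1 and 2 alone that gene was not Tnfrsf19 (adjusted p = 0.132). The count was 2 without control 3 and 8 without non-fibrotic array 4. Without non-fibrotic array 10 it was 3, and 1 gene was higher.

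For markers of blood cells, the median log2 differences between non-fibrotic and control bronchi were −2.07 for neutrophil, −1.25 for B and plasma cell, −0.72 for T and NK cell and −0.55 for macrophage and monocyte markers, and none of these markers was called. The log2 of the summed signal of the neutrophil markers was 8.51 to 11.1 in non-fibrotic and 9.80 to 13.3 in control bronchi, that of the B and plasma cell markers 11.74 to 13.44 and 12.05 to 13.76, and that of the T and NK cell markers 10.502 to 12.116 and 9.25 to 13.01. Of the epithelial markers, 3 of 11 club cell and 1 of 9 ciliated cell markers fell, against 0.436% of all genes. No basal and squamous epithelial marker was called. The medians were −1.37 for neutrophil, −0.34 for B and plasma cell, 0.03 for T and NK cell and 0.40 for macrophage and monocyte markers when non-fibrotic array 8 was left out. The part of these cells in the lower values was not tested.

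Between fibrotic and non-fibrotic bronchi, Tnfaip3 and Tnfrsf26 rose and no gene fell, where 5.3% of all genes were called (1.47% higher and 3.83% lower). At 0.05, 9 genes were higher and none was lower, against 5.64% and 6.99% of all genes. They were Tnfrsf26, Tnfaip3, Birc3, Tnfrsf12a, Tnfrsf14, Tnfrsf1b, Cd40, Ripk2 and Birc2. The difference was positive for 40 of the 46 genes, with a median of 1.05, where 50% of all genes were positive and their median was near 0. In 17 genes every fibrotic array lay above every non-fibrotic one, and in 0 genes below, against 14.1% and 13.3% of all genes. On the probe sets used, all 4 NF-kappaB subunits, all 5 IkB genes and all 7 adaptors, kinases and ubiquitin enzymes had a positive difference. Second probe sets of Ripk1 (−0.47) and Nfkbiz (−1.62) went the other way, and that of Ikbkb did not (1.92). Without non-fibrotic array 8 the median was 0.78 and 38 of the 46 were positive, but neither gene kept its call and 4 genes passed 0.05. That count was 3, 4 and 6 without fibrotic array 3, 7 or 9, 6 without non-fibrotic array 10, 16 without non-fibrotic array 4 and 1 with array quality weights.

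**Figure D1:**
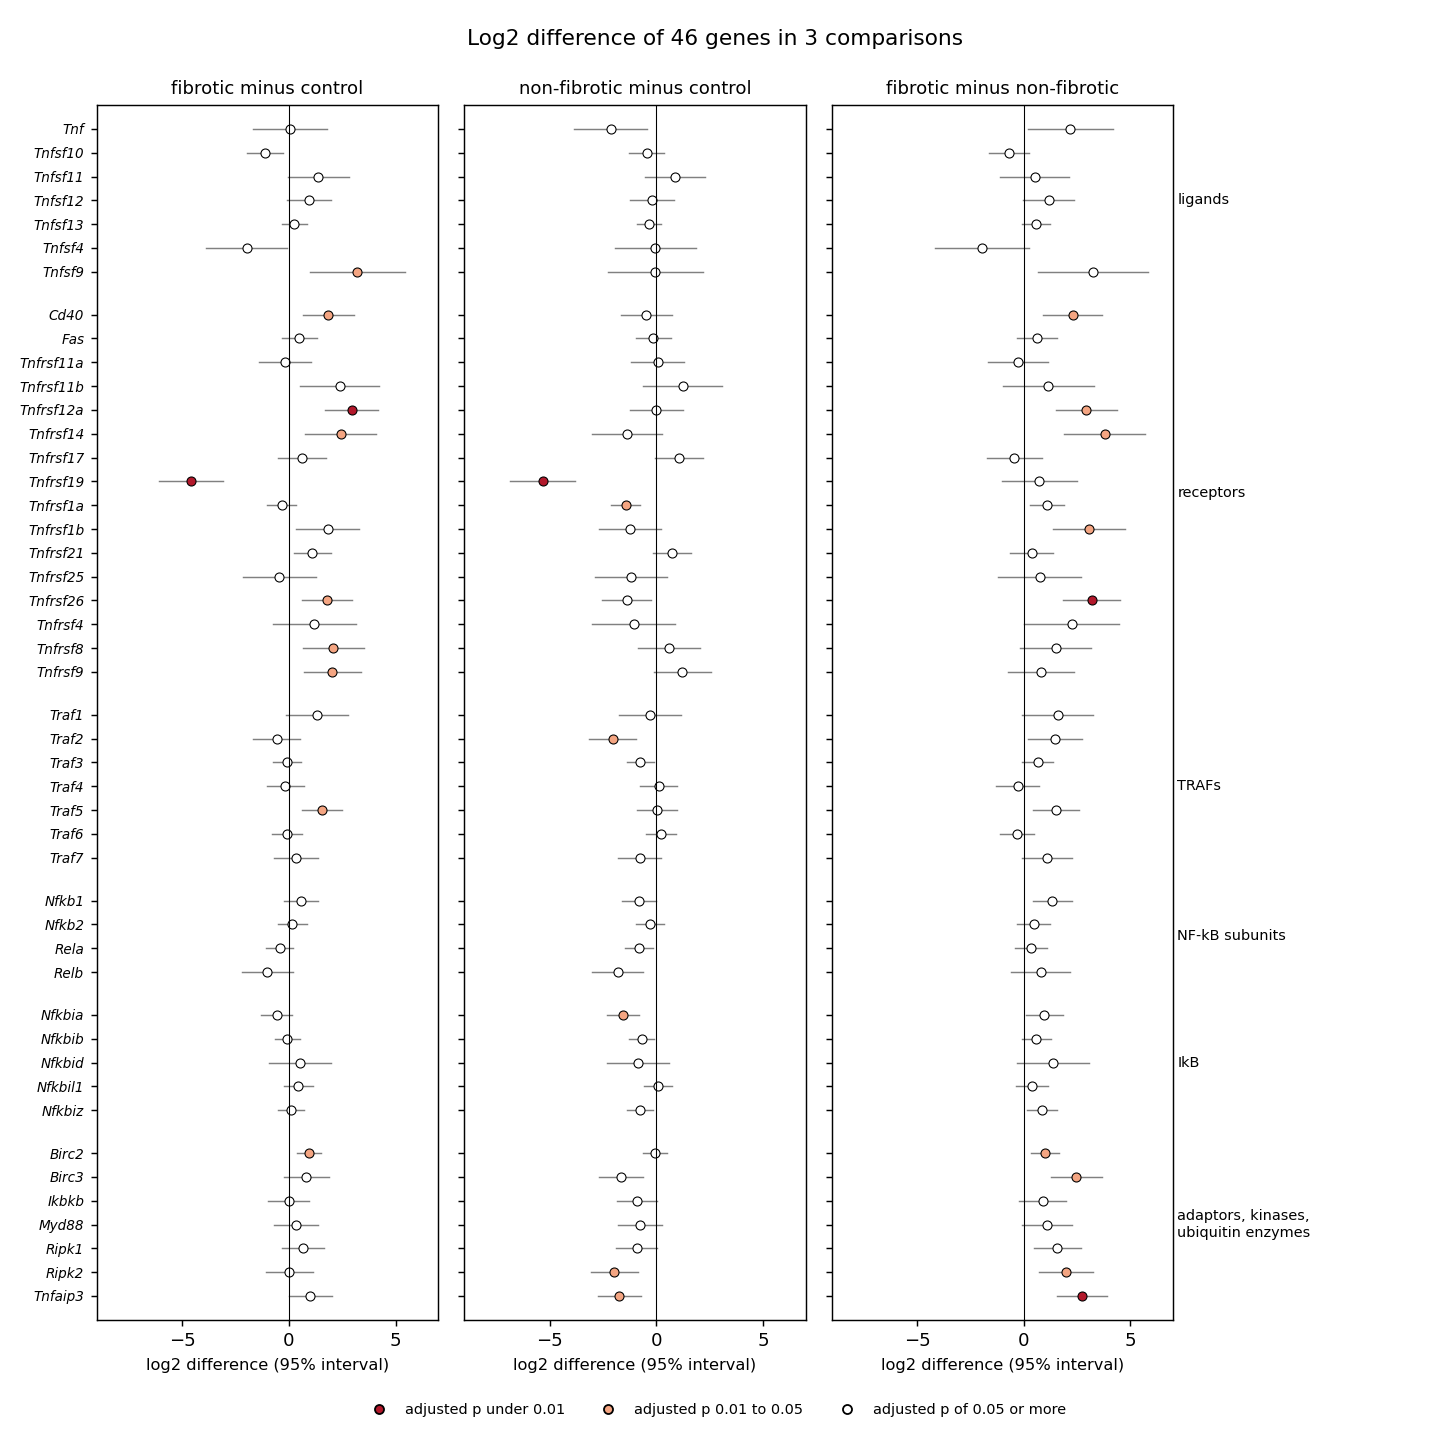
Log2 difference of each of the 46 genes (points, grouped by role down the page) with its 95% interval from the limma model (lines), for fibrotic minus control, non-fibrotic minus control and fibrotic minus non-fibrotic bronchi. Filled points mark the thresholds on adjusted p: of 46 genes, 31, 11 and 40 lie right of 0 in the 3 panels from left to right.

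No ligand was called in any comparison. Tnf, the founding cytokine of the family, was at 7.84, 6.87 and 5.91 in fibrotic bronchi and at 7.01, 4.36 and 2.70 in non-fibrotic bronchi, against 5.26 to 7.92 with a median of 7.04 in controls. Its fibrotic values lay within the control range, and the difference was 0.05 ± 0.81 (SE, adjusted p = 0.978). In non-fibrotic bronchi the difference was −2.14 ± 0.81 (adjusted p = 0.113), and a second Tnf probe set gave −2.98 (adjusted p = 0.0333) there and −1.36 (adjusted p = 0.23) in fibrotic bronchi.

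Tnfsf12 encodes TWEAK, the ligand of the receptor encoded by Tnfrsf12a. It was at 9.72, 9.02 and 8.96 in fibrotic and 9.46, 6.70 and 8.01 in non-fibrotic bronchi, against 7.30 to 8.66 with a median of 8.41 in controls. Every fibrotic array lay above every control array, but the difference of 0.95 ± 0.48 had an adjusted p of 0.19. Tnfsf10 encodes TRAIL, which binds death receptors. It averaged 7.05 ± 0.76 in fibrotic bronchi and 8.17 ± 0.25 in controls (SD, n = 3 and 6), with no overlap and an adjusted p of 0.0565. Tnfsf9, the ligand of 4-1BB, was the ligand with the smallest p and is named after its values were seen. It was at 7.44, 7.56 and 6.73 in fibrotic bronchi and at 6.47, 3.08 and 2.45 in non-fibrotic bronchi, against 2.23 to 6.28 in controls. All non-fibrotic and control values were under the level of absent transcripts, so that fibrotic bronchi were at least 1.66-fold higher than each (adjusted p = 0.0446 against control and 0.11 against non-fibrotic bronchi). The pass against control was lost without any 1 of the fibrotic arrays (adjusted p = 0.0814 to 0.13) and with the form of the labels as a fixed block (0.211). Tnfsf4 and Tnfsf11 were under the level of absent transcripts on every fibrotic and control array, so no difference is given for them. Tnfsf13, which encodes APRIL, averaged 10.84 ± 0.49 in fibrotic, 10.26 ± 0.45 in non-fibrotic and 10.59 ± 0.31 in control bronchi.

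Tnfrsf12a, the TWEAK receptor known as Fn14, is induced in injured and regenerating tissue. It reached 11.64, 11.64 and 10.18 in fibrotic bronchi and 9.81, 6.36 and 8.49 in non-fibrotic bronchi, against 7.44 to 8.84 with a median of 8.29 in controls. All 3 fibrotic arrays lay above every other array. The rise over control was 7.63-fold (log2 2.93 ± 0.59, adjusted p = 0.00246). Against non-fibrotic bronchi it was 7.64-fold, with an adjusted p of 0.0125, which is over the threshold of a call. Without non-fibrotic array 8 that log2 difference was 2.00 (adjusted p = 0.0475), and without non-fibrotic array 4 it was 3.73 (0.00144). The mean of non-fibrotic bronchi was close to that of controls (95% interval of the log2 difference −1.25 to 1.25), and their arrays spread from below the lowest to above the highest control. The call against control was lost without fibrotic array 3 (adjusted p = 0.0215), without fibrotic array 7 (0.021) and against controls 1 and 2 alone (log2 2.95, 0.0636). It was also lost with the form of the labels as a fixed block (log2 2.95, 0.0289), without the intensity trend (0.0128) and with values floored at the level of absent transcripts (0.0158).

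Tnfrsf19 encodes TROY, a receptor of the family with no death domain. It was at 1.35, 2.71 and 4.97 in fibrotic bronchi and at 2.67, 1.87 and 2.31 in non-fibrotic bronchi, against 7.09 to 8.38 with a median of 7.56 in controls. All exposed bronchi lay under the level of absent transcripts and all controls above it. The fitted difference was −4.59 ± 0.72 in fibrotic bronchi (adjusted p = 0.000316) and −5.32 ± 0.72 in non-fibrotic bronchi (adjusted p = 0.00174). The bound that the level of absent transcripts allows is at least 2.12-fold lower in either group. With every value under that level set to it, the adjusted p was 0.0131 in fibrotic and 0.0344 in non-fibrotic bronchi, and against controls 1 and 2 alone it was 0.0494 and 0.132. With the form of the labels as a fixed block it was 0.0164 for non-fibrotic bronchi.

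Tnfrsf26 is a receptor known mainly from the mouse. Its values were 8.47, 8.26 and 8.31 in fibrotic bronchi and 5.56, 4.33 and 5.60 in non-fibrotic bronchi, against 5.00 to 7.32 with a median of 6.85 in controls. The fibrotic arrays were close together and above all others, and the non-fibrotic ones were all under the level of absent transcripts. Fibrotic bronchi were thus at least 3.56-fold higher than non-fibrotic bronchi (fitted log2 3.19 ± 0.63, adjusted p = 0.00461). Leaving out fibrotic array 3, 7 or 9 gave adjusted p-values of 0.0232, 0.0171 and 0.014, and leaving out non-fibrotic array 8 or 10 gave 0.0208 and 0.0105, with log2 differences of 2.77 to 3.41. The call was also lost with array quality weights (0.0181), with controls 1 and 2 as the only controls (0.0315) and in a fit of the 2 groups alone (0.0244). Against control the log2 difference was 1.79 ± 0.55 (adjusted p = 0.0321), and this pass was lost without any 1 of the fibrotic arrays (0.08 to 0.104), without control 3 (0.0535) or 5 (0.0657), and with the fixed block (log2 2.19, 0.0602).

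Both Tnfrsf14 and Cd40, receptors of immune cells, had their highest mean in fibrotic and their lowest in non-fibrotic bronchi. Tnfrsf14 encodes HVEM, which binds LIGHT and the inhibitory receptor BTLA. It was at 11.83, 11.60 and 12.19 in fibrotic and 9.57, 6.66 and 8.01 in non-fibrotic bronchi, against 7.10 to 11.83 with a median of 9.07 in controls. Fibrotic and non-fibrotic bronchi did not overlap (log2 3.79 ± 0.90, adjusted p = 0.0143), while control 1 was as high as the fibrotic arrays and the difference from control was 2.42 ± 0.78 (adjusted p = 0.0415). Cd40, the costimulatory receptor of B cells and macrophages, was at 9.45, 9.19 and 9.85 in fibrotic and 8.01, 6.15 and 7.43 in non-fibrotic bronchi, against 5.97 to 9.09 with a median of 7.80 in controls. Fibrotic bronchi lay above all other arrays, by 1.84 ± 0.56 over control (adjusted p = 0.0324) and by 2.30 ± 0.65 over non-fibrotic bronchi (adjusted p = 0.0347). Against controls 1 and 2 alone, the fibrotic minus control difference was 0.58 for Tnfrsf14 (adjusted p = 0.722) and 0.89 for Cd40 (0.52), and both passes were also lost without any 1 of the fibrotic arrays. With non-fibrotic array 8 left out, the fibrotic minus non-fibrotic difference was 3.08 for Tnfrsf14 (adjusted p = 0.0772) and 1.78 for Cd40 (0.142).

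TNF itself has a pair of receptors. Tnfrsf1b, the TNFR2 of leukocytes and endothelium, was at 8.80, 9.28 and 7.32 in fibrotic and 6.39, 3.17 and 6.73 in non-fibrotic bronchi, against 6.13 to 7.20 with a median of 6.67 in controls. All fibrotic arrays exceeded all others, with a difference of 3.04 ± 0.79 against non-fibrotic bronchi (adjusted p = 0.0245) and 1.81 ± 0.69 against control (adjusted p = 0.0824). Without non-fibrotic array 8 the first difference was 1.91 (adjusted p = 0.0724), with values floored at the level of absent transcripts it was 1.88 (0.0246), and without fibrotic array 3 or 7 the adjusted p was 0.0882 or 0.103. Tnfrsf1a, the widely expressed TNFR1 with a death domain, was at 9.58, 9.03 and 9.14 in fibrotic and 8.42, 7.68 and 8.37 in non-fibrotic bronchi, against 8.78 to 10.14 with a median of 9.72 in controls. Here the non-fibrotic arrays were below all others, by 1.43 on the log2 scale against control (difference −1.43 ± 0.32, adjusted p = 0.0239). That difference was −0.83 against controls 1 and 2 alone (adjusted p = 0.509), which are the lowest controls for this gene, and without non-fibrotic array 8 it was −1.19 (0.0714).

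Fas, the death receptor of the Fas ligand, did not pass 0.05 in any comparison. It averaged 7.92 ± 0.43 in fibrotic and 7.29 ± 0.30 in non-fibrotic bronchi and 7.44 ± 0.45 in controls (SD, n = 3, 3 and 6). Tnfrsf8 and Tnfrsf9, which encode CD30 and 4-1BB of activated lymphocytes, passed 0.05 in fibrotic against control bronchi and are named after their values were seen. Tnfrsf8 was at 7.39, 8.44 and 7.41 in fibrotic bronchi, against 4.55 to 7.14 in controls (2.09 ± 0.68, adjusted p = 0.0448). Tnfrsf9 was at 8.23, 8.48 and 6.27, against 4.29 to 6.82 (2.02 ± 0.63, adjusted p = 0.0359), with fibrotic array 9 inside the control range. With the form of the labels as a fixed block the difference was 1.00 for Tnfrsf8 (adjusted p = 0.481) and 1.78 for Tnfrsf9 (0.202), and Tnfrsf8 also missed 0.05 without any 1 of the fibrotic arrays (0.0796 to 0.173). Tnfrsf9 missed it without fibrotic array 3 (0.146) or 7 (0.163). For Tnfrsf9, fibrotic array 9 and every control except control 4 were under the level of absent transcripts. With values floored at that level its difference was 1.17 (adjusted p = 0.0781). The remaining 6 receptors did not pass 0.05 in any comparison.

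**Figure D2:**
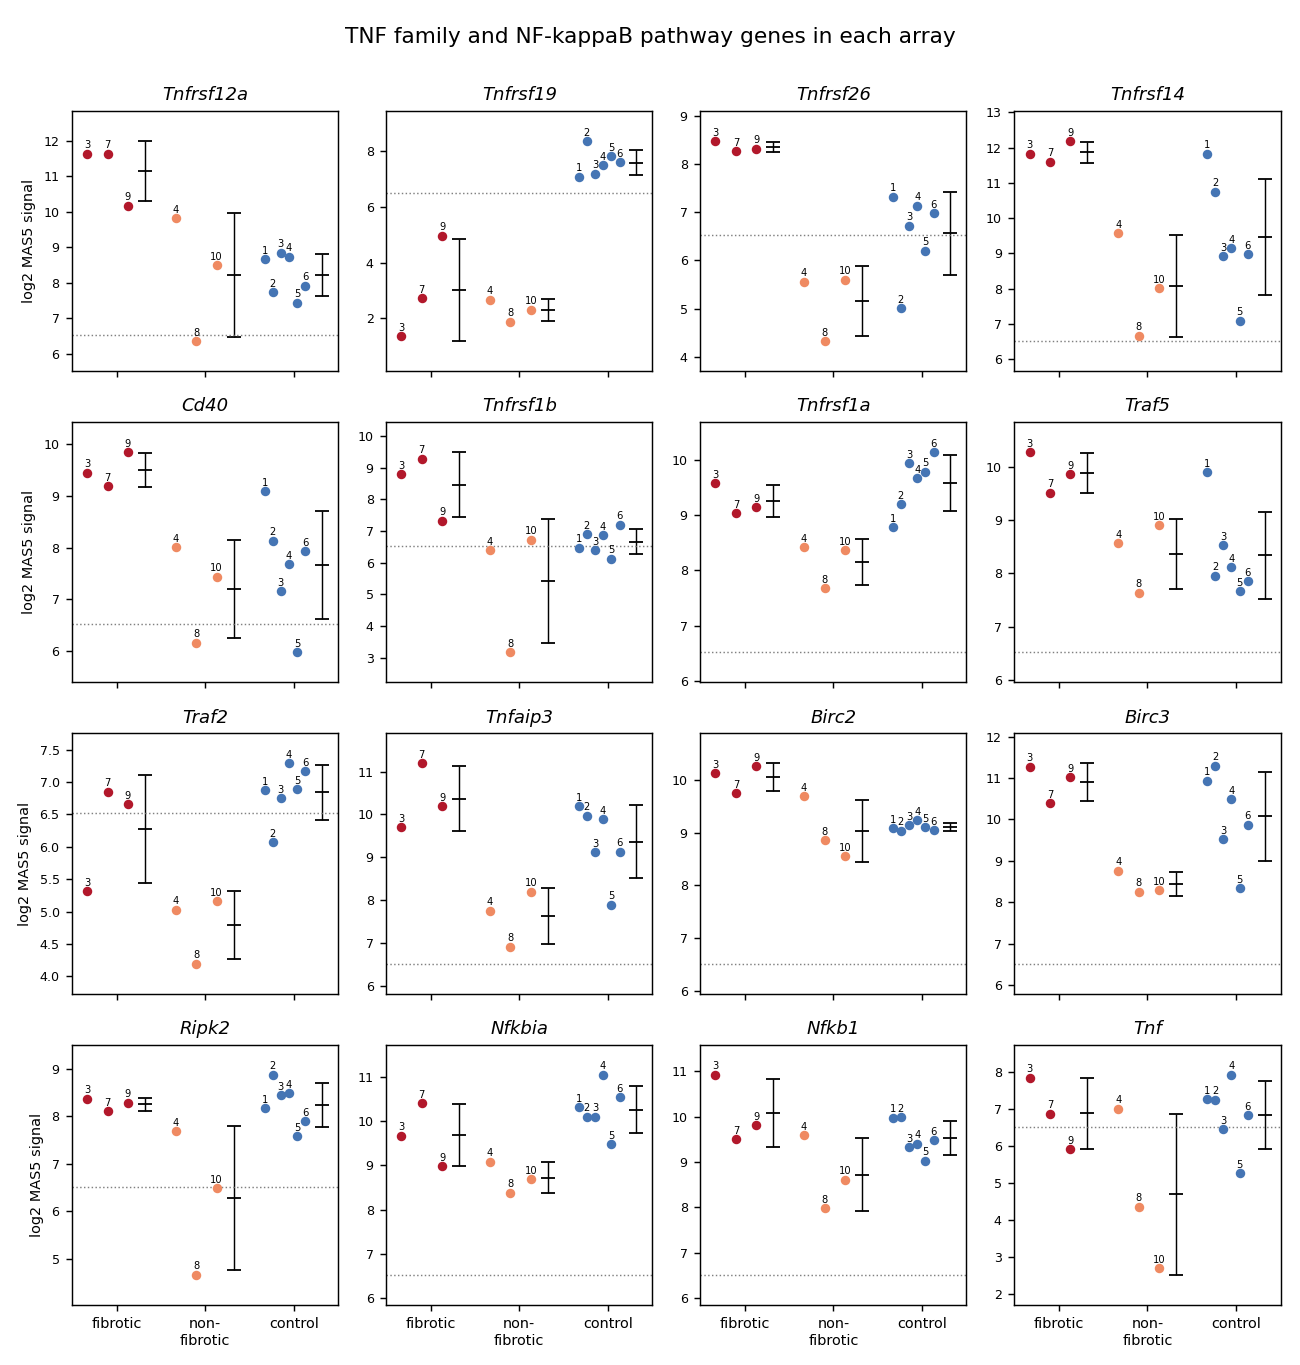
Log2 MAS5 signal of 16 genes on each array (points, numbered by replicate) in fibrotic, non-fibrotic and control bronchi, with the mean and SD of each group (bars, n = 3, 3 and 6) and the level of absent transcripts at 6.52 (dotted line). Tnfrsf12a is highest on the 3 fibrotic arrays, Tnfrsf19 is below the dotted line on all 6 arrays of PD-exposed rats, and non-fibrotic array 8 is the lowest of all arrays for genes such as Ripk2 and Tnfrsf1b.

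Of the TRAFs, Traf5 and Traf2 stood out, in different comparisons. Traf5, an adaptor of CD40 and related receptors, was at 10.27, 9.51 and 9.86 in fibrotic and 8.56, 7.64 and 8.90 in non-fibrotic bronchi, against 7.67 to 9.89 with a median of 8.03 in controls. Its fibrotic mean was 1.55 ± 0.45 above control (adjusted p = 0.0241), although control 1 lay among the fibrotic arrays. With the form of the labels as a fixed block it was 0.96 (adjusted p = 0.299), as a random block 1.38 (0.0614), and without fibrotic array 3 it was 1.35 (0.111). Traf2, which brings the Birc2 and Birc3 ligases to TNF receptors, was at 5.32, 6.85 and 6.66 in fibrotic and 5.03, 4.20 and 5.16 in non-fibrotic bronchi, against 6.07 to 7.29 with a median of 6.88 in controls. The non-fibrotic arrays were below all controls and under the level of absent transcripts, at least 1.25-fold lower (fitted log2 −2.05 ± 0.52, adjusted p = 0.0343). The pass was lost without non-fibrotic array 8 (adjusted p = 0.086) or 10 (0.0557) and with the fixed block (0.184).

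Traf1, an NF-kappaB-induced TRAF, averaged 9.15 ± 0.75 in fibrotic, 7.55 ± 1.62 in non-fibrotic and 7.84 ± 1.08 in control bronchi, and its adjusted p was 0.2 or more in each comparison. Traf3, which restrains the non-canonical branch, averaged 9.30 ± 0.51, 8.64 ± 0.41 and 9.39 ± 0.33 in fibrotic, non-fibrotic and control bronchi. Traf6, the TRAF of interleukin 1 and Toll-like receptors, averaged 10.97 ± 0.82, 11.28 ± 0.15 and 11.07 ± 0.50. Neither passed 0.05, and the 2 other TRAFs had differences of −0.77 to 1.1 over the 3 comparisons.

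The subunits of NF-kappaB did not pass 0.05 in any comparison. Nfkb1, the precursor of p50, was at 10.92, 9.50 and 9.80 in fibrotic and 9.58, 7.98 and 8.61 in non-fibrotic bronchi, against 9.02 to 9.98 with a median of 9.44 in controls. The fibrotic minus non-fibrotic difference was 1.35 ± 0.43 (adjusted p = 0.063). Rela, the main transactivating subunit, averaged 9.52 ± 0.37 in fibrotic, 9.16 ± 0.75 in non-fibrotic and 9.96 ± 0.27 in control bronchi. Nfkb2, the precursor of p52, averaged 9.78 ± 0.36, 9.31 ± 0.39 and 9.62 ± 0.50 in these groups. The 95% interval of the fibrotic minus control difference was −1.09 to 0.21 for Rela and −0.50 to 0.82 for Nfkb2.

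Relb, the partner of p52 in the non-canonical branch, had the largest negative differences of the 4 subunits. It was at 7.92, 7.69 and 7.65 in fibrotic and 7.87, 4.86 and 8.15 in non-fibrotic bronchi, against 8.09 to 9.12 with a median of 8.86 in controls. Every fibrotic array lay under every control array, with a difference of −1.01 ± 0.56 (adjusted p = 0.23). In non-fibrotic bronchi the difference was −1.80 ± 0.56 (adjusted p = 0.0642), and array 8 was far below the other 2 arrays.

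Nfkbia, whose promoter stretch is given above, encodes the IkB that NF-kappaB itself induces. It was at 9.68, 10.41 and 8.99 in fibrotic and 9.08, 8.39 and 8.69 in non-fibrotic bronchi, against 9.48 to 11.06 with a median of 10.22 in controls. The non-fibrotic arrays lay below every control, with a difference of −1.55 ± 0.35 (2.93-fold lower, adjusted p = 0.0234), and the fibrotic arrays overlapped both groups (−0.58 ± 0.35 against control, adjusted p = 0.273). The sign was the same under all 24 alternatives, at −1.73 to −1.38, with adjusted p-values of 0.0174 to 0.25, and the pass was lost without non-fibrotic array 8 (0.0693) or 10 (0.0616). Nfkbiz, which encodes the nuclear IkB-zeta, was at 10.30, 11.12 and 10.45 in fibrotic and 10.03, 9.89 and 9.35 in non-fibrotic bronchi, against 9.83 to 11.24 in controls. All fibrotic values exceeded all non-fibrotic ones (0.87 ± 0.34, adjusted p = 0.127). A second Nfkbiz probe set differed by −1.62 (adjusted p = 0.27). The other 3 IkB genes had adjusted p-values of 0.134 or more.

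Tnfaip3, which also has its promoter stretch above, encodes A20, the enzyme that shuts off signalling from TNF receptors. It was at 9.70, 11.19 and 10.20 in fibrotic and 7.75, 6.91 and 8.20 in non-fibrotic bronchi, against 7.89 to 10.19 with a median of 9.51 in controls. The fibrotic and non-fibrotic arrays did not overlap, and the controls overlapped both. The rise over non-fibrotic bronchi was 6.69-fold (log2 2.74 ± 0.55, adjusted p = 0.00495). Against control the difference was 1.00 ± 0.47 in fibrotic bronchi (adjusted p = 0.16) and −1.74 ± 0.47 in non-fibrotic bronchi (adjusted p = 0.0438, and 0.131 without array 8). The call between fibrotic and non-fibrotic bronchi was lost without fibrotic array 7 (adjusted p = 0.0308) or 9 (0.0138) and without non-fibrotic array 8 (0.029) or 10 (0.0104), with differences of 2.33 to 3.03. It was also lost without the intensity trend (0.0252), with the floor (0.0268), with array quality weights (0.0684) and in a fit of the 2 groups alone (0.0117).

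The ubiquitin ligases of the receptor complex, cIAP2 and cIAP1, are encoded by Birc3 and Birc2. Birc3 was at 11.28, 10.39 and 11.02 in fibrotic and 8.76, 8.25 and 8.30 in non-fibrotic bronchi, against 8.34 to 11.30 with a median of 10.18 in controls. Fibrotic and non-fibrotic bronchi were separated by 2.46 ± 0.56 (5.51-fold, adjusted p = 0.0115), with controls spread over both. This pass was lost without fibrotic array 3 (adjusted p = 0.0551), with values floored at the level of absent transcripts (0.0506) and with array quality weights (0.125). Birc2 was at 10.13, 9.75 and 10.26 in fibrotic and 9.69, 8.86 and 8.56 in non-fibrotic bronchi, against 9.04 to 9.24 in controls, a narrow range. Its fibrotic arrays were above all others, by 0.94 ± 0.27 over control (1.92-fold, adjusted p = 0.023) and 1.01 ± 0.31 over non-fibrotic bronchi (adjusted p = 0.0495). The pass against control was lost without fibrotic array 3 (0.0824) or 9 (0.0975) and with the fixed block (0.079), and that against non-fibrotic bronchi without any 1 of the exposed arrays except non-fibrotic array 4 (0.0615 to 0.157).

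Ripk2, the kinase of the NOD receptors, was at 8.37, 8.11 and 8.29 in fibrotic and 7.68, 4.66 and 6.48 in non-fibrotic bronchi, against 7.58 to 8.88 with a median of 8.31 in controls. The fibrotic minus control difference was 0.01 (95% interval −1.09 to 1.11), and non-fibrotic bronchi were 1.97 lower on the log2 scale (−1.97 ± 0.52, adjusted p = 0.0393). Without non-fibrotic array 8 this difference was −1.16 (adjusted p = 0.117), and with values floored at the level of absent transcripts −1.34 (0.0578). The fibrotic minus non-fibrotic difference was 1.98 ± 0.60 (adjusted p = 0.0486), and 1.17 (0.167) without that array. Ripk1, the kinase that joins TNFR1 to survival or death, was at 9.22, 9.10 and 8.22 in fibrotic and 8.28, 6.20 and 7.33 in non-fibrotic bronchi, against 7.58 to 8.89 in controls. Its fibrotic minus non-fibrotic difference was 1.58 ± 0.52 (adjusted p = 0.0714), and a second probe set gave −0.47 (adjusted p = 0.54). Myd88, the adaptor of interleukin 1 and Toll-like receptors, averaged 9.05 ± 0.17 in fibrotic, 7.97 ± 1.27 in non-fibrotic and 8.73 ± 0.64 in control bronchi. Ikbkb, the catalytic kinase of IkB, averaged 7.15 ± 0.66, 6.26 ± 0.80 and 7.17 ± 0.16 in these groups, and neither gene passed 0.05.

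**Figure D3:**
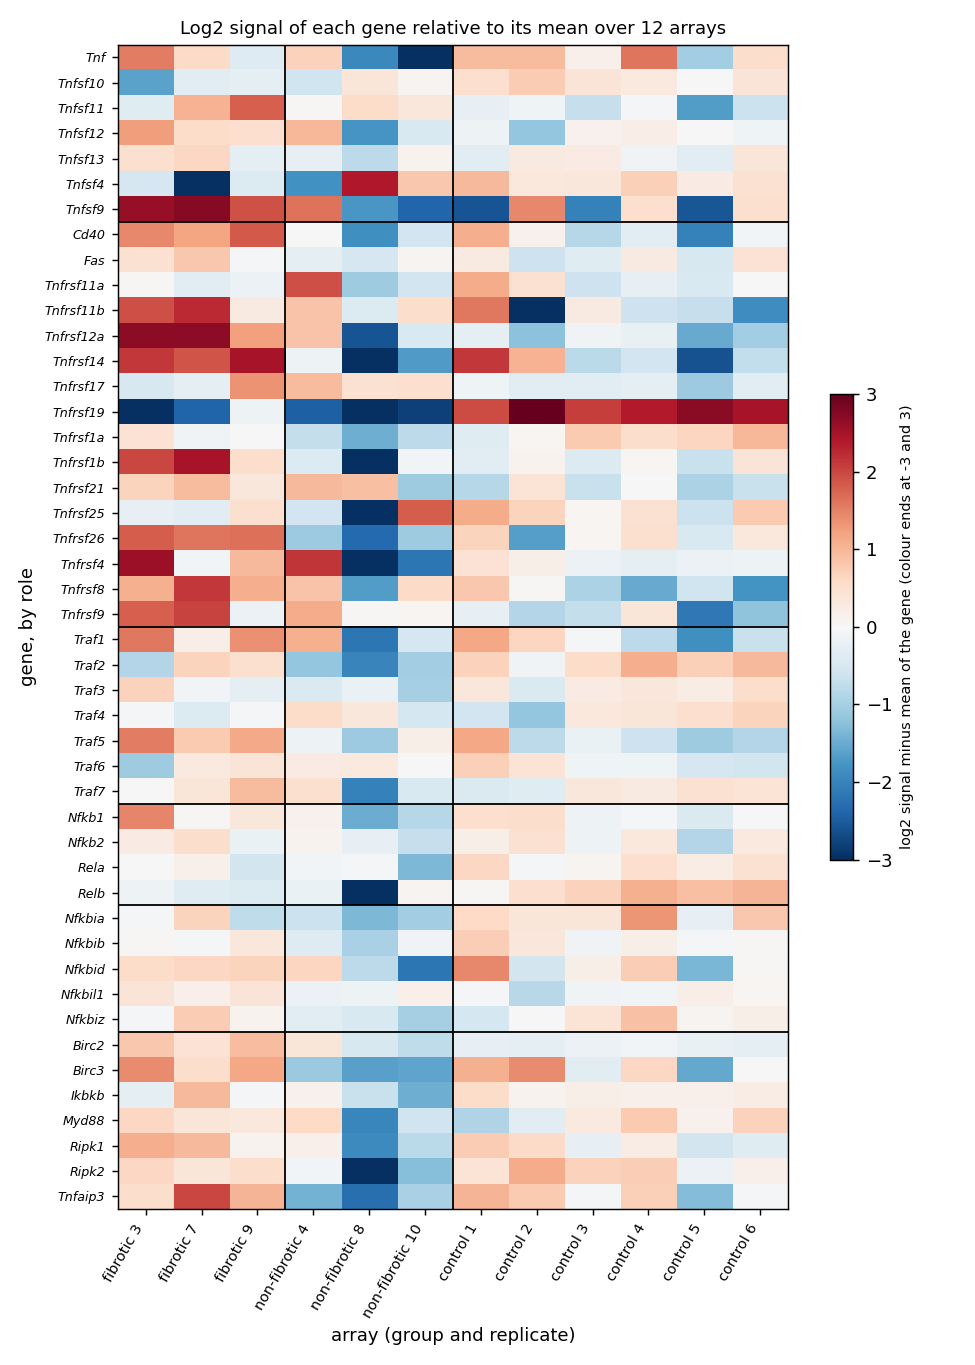
Log2 signal of each of the 46 genes (rows, by role) relative to its mean over 12 arrays (columns, by group and replicate), red above and blue below the mean, with the colour scale ending at −3 and 3. Non-fibrotic array 8 is the lowest for 23 of the 46 genes, and Tnfrsf19 separates all 6 arrays of PD-exposed rats from the 6 controls.

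Further genes of the pathway were counted from a list of 41 adaptors and kinases outside the definition, of which 35 were measured. Between fibrotic and control bronchi Ripk3, a kinase of necroptosis (log2 2.19, adjusted p = 0.00896), and Adam17, the protease that sheds TNF (1.02, adjusted p = 0.00758), rose, and Diablo, an antagonist of the IAP proteins, fell by 1.21 on the log2 scale (adjusted p = 0.00103). Between fibrotic and non-fibrotic bronchi Diablo fell by 1.30 (adjusted p = 0.00405), and between non-fibrotic and control bronchi none was called. The 3 calls among 35 genes in fibrotic against control bronchi stand against 12.5% of all genes. Without any 1 of the fibrotic arrays neither rise was called, and with the form of the labels as a fixed block none of the 3 was. Diablo was not called against non-fibrotic bronchi without fibrotic array 3 or 9 or without non-fibrotic array 10. The medians were 0.35 in fibrotic and 0.04 in non-fibrotic bronchi, each against control, and 0.14 between fibrotic and non-fibrotic bronchi.

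Genes known from the literature as NF-kappaB targets were counted from a second list. All 56 of the list were measured, and 3 of them are also in the list above. The list includes Plau, Il1a and Il1rn, which the authors already reported as raised in these fibrotic bronchi. Its counts are thus not independent of the published results. Between fibrotic and control bronchi 7 rose and 1 fell, against 4.13% and 8.38% of all genes, and the median was 0.88. The rises with the smallest p were Plau, the urokinase (log2 3.92, adjusted p = 3e-05), Il1a, an interleukin 1 (4.48 as fitted, adjusted p = 8.2e-05, with every control array under the level of absent transcripts), and Cd80, a costimulatory ligand (3.26, adjusted p = 0.000459). Ccl20, an epithelial chemokine, went the other way, fell by 3.20 (adjusted p = 0.00728), and was also the 1 target called in non-fibrotic against control bronchi, where it fell by 4.30 (adjusted p = 0.00786) and the median was −0.49. The number of targets that rose against control was 4 without fibrotic array 3 or 7, 3 with the fixed block and 2 against controls 1 and 2 alone, and without non-fibrotic array 8 none was called in non-fibrotic against control bronchi.

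Between fibrotic and non-fibrotic bronchi 5 targets rose and none fell, against 1.47% and 3.83% of all genes. At 0.05, 19 of 56 were higher and none was lower, against 5.64% and 6.99% of all genes. The median was 1.19. Csf1, the growth factor of macrophages, differed by 2.53 (adjusted p = 0.00219), Plau by 2.95 (adjusted p = 0.00309) and Il1rn, the interleukin 1 receptor antagonist, by 3.28 (adjusted p = 0.00321). Macrophage and monocyte markers moved with them: 7 of 20 rose, with a median of 2.98. Without fibrotic array 3 or 7 no target was called, without non-fibrotic array 10 1 was, and without non-fibrotic array 4 13 were. Without non-fibrotic array 8, 1 target was called, the target median was 1.05 and that of the macrophage markers 2.22.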

How the data were processed

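The deposited values are MAS5 intensities on a linear scale, which the authors scaled so that each array has the same trimmed mean. The version is not given in the sources used here, and neither detection calls nor error weights are part of the values. The series text names another rat array than the one whose probe sets the table holds. Of 31099 probe sets, 57 are Affymetrix controls, and 31042 were tested with no filter. The annotation gives 1 symbol to 20826 of them, several to 436 and none to 9780. Probe sets with several symbols were assigned to no gene.

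Without a pseudocount, log2 signals were fitted in R 4.3.3 by limma 3.58.1 (lmFit, then eBayes with trend) on 3 groups and 12 arrays. Calls were made at a Benjamini-Hochberg adjusted p under 0.01 over all probe sets of a contrast, with 0.05 as a second threshold. Errors are SE of the model or SD of arrays, and the number of arrays limits the precision. The level of absent transcripts is the highest of 36 values of bacterial tryptophan transcripts. A lower bound divides the mean of the brighter group by this level.

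The 46 genes, their roles and all lists were chosen with earlier results of these data known, so counts over them are descriptions. Named are the genes called in any comparison, those with the 6 smallest p in each, and a fixed list, and in addition Tnfsf9, Tnfrsf8 and Tnfrsf9, chosen after their values were seen. From the lists of pathway genes, up to 3 called genes with the smallest p in each direction are named. Alternatives changed the threshold, variance model, filter (lowest 40% dropped), floor, pseudocount (16), normalization, weights, controls, label form as a block, arrays in the fit, summary of probe sets and arrays, each left out in turn. Promoter windows are from RefSeq GRCr8, and figures were drawn with matplotlib 3.10.9.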

Additional observations from a re-analysis of the deposited data

Results flagged for a closer look

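Among the 29 named genes, 3 had a control array far from the other 5 by Dixon's test, which chance alone gives in about 5% of groups. Ikbkb was at 7.488 in control 1, above the other controls, with a gap of 0.711 of the range. Tnfsf12 was at 7.302 in control 2 (gap 0.738) and Traf3 at 8.752 in control 2 (gap 0.693), both below the other controls. Controls 1 and 2 are also the arrays with the low poly-A signals. The effects of fibrotic and of non-fibrotic bronchi against control differed in 2 genes by a test of the difference itself in limma. This test is the same as the fibrotic minus non-fibrotic comparison, so these are the 2 calls given above. Tnfrsf26 had a difference of 3.187 between the effects (adjusted p = 0.00461), and Tnfaip3 one of 2.742 (adjusted p = 0.00495).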

How the results depend on the processing

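Between fibrotic and control bronchi, 2 of the 46 genes were called, and between non-fibrotic and control bronchi 1 was called. Between fibrotic and non-fibrotic bronchi 2 were called. At an adjusted p under 0.05 these counts were 10, 6 and 9. In the same order of comparisons, 1, 1 and 1 genes were called without the intensity trend, 1, 0 and 1 with the lowest 40% of probe sets dropped (34 of the 46 genes left), 2, 0 and 1 with a floor at the level of absent transcripts, 2, 1 and 4 with a pseudocount of 16, and 6, 1 and 0 with array quality weights. Controls 1 and 2 alone gave 0, 0 and 3, controls 3 to 6 alone 5, 2 and 4, the label form as a fixed block 1, 0 and 4, and as a random block 2, 1 and 4. Leaving out each array in turn gave 1 to 5 (5 without control replicate 1, 1 without fibrotic replicate 3 or 7), 1 to 2 (2 without non-fibrotic replicate 4 or control replicate 1) and 0 to 7. The 0 counts of the last comparison arose without fibrotic replicate 7 or 9 and without non-fibrotic replicate 8 or 10, and the highest without non-fibrotic replicate 4. The cause was not tested. A fit of the 2 groups alone gave 3, 1 and 2, and in the last comparison these were Birc3 and Tnfrsf14 in place of Tnfaip3 and Tnfrsf26. At 0.05 the alternatives gave 0 to 11 higher and 1 to 3 lower between fibrotic and control bronchi, 0 to 1 higher and 1 to 8 lower between non-fibrotic and control bronchi, and 1 to 16 higher and 0 lower between fibrotic and non-fibrotic bronchi. With a floor, the calls between fibrotic and control bronchi were Tnfrsf26 and Tnfsf9. Over all probe sets 2914, 162 and 1185 were called, and the alternatives gave 408 to 4863, 2 to 1016 and 292 to 1921.

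No alternative turned the direction of a gene that passed 0.05. The median of the 46 genes was 0.29 to 0.52 between fibrotic and control bronchi, −0.96 to −0.10 between non-fibrotic and control bronchi, and 0.69 to 1.31 between fibrotic and non-fibrotic bronchi. The median of NF-kappaB targets was 0.62 to 1.07, −0.78 to −0.06 and 1.05 to 1.46, with 2 to 10, 0 and 0 to 13 called as higher. No paired analysis was possible because the labels do not say which specimens came from the same rat. Groups wholly under the level of absent transcripts limit Tnfrsf19, Tnfrsf26, Traf2 and Tnfsf9, whose fitted folds depend on dim values. Arrays under that level also enter the differences of other genes. For Tnf and Ripk2 they include non-fibrotic arrays 8 and 10, and for Tnfrsf8 all controls except control 1. With the floor, the fibrotic minus control difference of Tnfrsf8 was 1.13 (adjusted p = 0.0153).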
